A study of Mus musculus with 24 samples.

Results

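Heat shock chaperones are proteins that hold, refold or pass on other proteins, and 10 of their genes were followed here through mouse prefrontal cortex. The members were set by name: the HSP70 genes Hspa1a, Hspa1b and Hspa8, the HSP110 gene Hsph1, the HSP90 genes Hsp90aa1 and Hsp90ab1, the J-domain gene Dnajb1, the small heat shock gene Hspb1, and the co-chaperone genes Chordc1 and Bag3. All 10 were among the 18240 genes of the deposited table, and all 10 passed the filter on low values that 16825 genes passed. Bulk RNA sequencing of prefrontal cortex from C57BL/6J mice at postnatal day 40 gave 24 libraries in 4 arms of 6, each with 3 female and 3 male libraries. The control arm was wild type (WT) given vehicle. In the other arms the mice were Dyrk1a+/I48X heterozygotes (HT) given vehicle, fluoxetine or lithium. Fluoxetine is a serotonin reuptake inhibitor and lithium is a mood stabiliser. Every drug-treated arm therefore carried the Dyrk1a allele, and no drug-treated WT arm was analysed here. The sources used here give neither the doses nor the length of treatment, and the labels do not state whether libraries came from separate animals, so the p-values describe the spread between libraries, part of which may be technical.

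HSP70 proteins bind exposed hydrophobic stretches of client proteins in a cycle of ATP binding and hydrolysis. J-domain proteins such as Dnajb1 bring clients to HSP70 and start hydrolysis, HSP110 proteins such as Hsph1 exchange the nucleotide, and HSP90 takes over clients that are closer to their folded state, among them many kinases and steroid receptors. The transcription factor HSF1 binds heat shock elements, repeats of GAA and its reverse complement TTC, in the promoters of these genes. Hspa8 and Hsp90ab1 are abundant without stress, and Hspa1a and Hspa1b are the strongly inducible copies.

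Hspa1a and Hspa1b are near-identical neighbours on the minus strand of chromosome 17, and their promoters are shown because the values of this pair cannot be read apart with certainty. RefSeq promoter windows (250 bases before to 50 after the start site, GRCm38.p6) were present for 7 of the 10 members. The letters GAANNTTC, where N is any base, and TTCNNGAA were searched. Each reads the same on both strands, and matches may overlap. In the sequences below, capitals mark matches of either motif, and each is written 5′ to 3′ on the gene's strand.
Hspa1a, chr17:34972157-34972306, minus strand, 150 bases up to the start site: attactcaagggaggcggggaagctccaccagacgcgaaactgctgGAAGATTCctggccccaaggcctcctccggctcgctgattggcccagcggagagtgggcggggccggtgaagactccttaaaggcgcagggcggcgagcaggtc
Hspa1b, chr17:34959239-34959388, minus strand, 150 bases up to the start site: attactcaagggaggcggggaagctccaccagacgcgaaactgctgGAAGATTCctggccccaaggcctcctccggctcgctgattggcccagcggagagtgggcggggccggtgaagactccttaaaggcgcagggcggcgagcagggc
Hspb1, chr5:135887789-135887838, plus strand, bases -130 to -81: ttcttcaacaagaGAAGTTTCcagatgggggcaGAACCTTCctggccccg
Hsph1, chr5:149636352-149636381, minus strand, bases -45 to -16: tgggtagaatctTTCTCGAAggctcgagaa
Hsph1, chr5:149636288-149636300, minus strand, bases 37 to 49 after the start: TTCTGGAAAGTTC
Chordc1, chr9:18292261-18292287, plus strand, from base -6 to base 21 after the start: cgGAACGTTCGGGAAAATTCCTGAAgc
Bag3, chr7:128523625-128523632, plus strand, bases 43 to 50 after the start: GAAGTTTC

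The whole windows of Hspa1a and Hspa1b differed at 4 of 300 bases. Counted from 1 at the 5′ end of the window, with the Hspa1a base first, the differences were C44T, T47C, T249G and C276T. The match in the pair lay at the same place in both, with its first base 104 bases before the start. Of the 7 members with a window, 6 held GAANNTTC, against 7.86% of the 32851 windows in the table. Here a member counts if any of its windows matched, while the share is over single windows. Hsph1 had windows at different start sites, and the positions printed are from the first listed. TTCNNGAA was found in 2 of the 7 (Hsph1 and Chordc1), against 8.52% of windows. Either motif was found in 6 of 7, against 15.06% of windows, and neither was found in the window of Dnajb1. Chordc1 had the densest run, with overlapping matches that began between 4 bases before and 12 bases after its start site. A match of letters is a description of the sequence and was not tested for binding.

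Across transcripts, 63.8% of the 31-base words of the Hspa1a transcript (2967 bases) also occur in the Hspa1b transcript (2803 bases). Of such words in the longest open reading frame of Hspa1a, 88.4% also occur in that of Hspa1b. Reads from the shared stretches fit both genes, so the split between them rests on the remaining sequence. Hspa1b held 48.2% ± 3.61 (SD, n = 24) of the summed value of the pair, with single libraries from 40.5% to 56.0%. The sum of both genes is therefore given beside each of them.

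Per kilobase of annotated exon, the constitutive HSP70 gene Hspa8 (chromosome 9, 40800984 to 40810087 on GRCm38) had the highest level of the members, 11350 ± 890 normalised reads per kb (SD, n = 24). The beta HSP90 gene Hsp90ab1 followed at 10821 ± 1188 per kb, and the ranges of these 2 genes overlapped, with Hspa8 above in 20 of 24 libraries. The length used was that of all annotated exons of a gene joined, 4301 bases for Hspa8. The longest protein-coding transcript of Hspa8 has 2394 bases, so levels per kb, overlaps and the order of members depend on the length chosen. Other lengths were not tried. Hsp90aa1, the alpha HSP90 gene, stood at 6635 ± 529 per kb, Hsph1 at 949.6 ± 111 per kb and Dnajb1 at 502 ± 43.3 per kb. From Hsp90ab1 down to Chordc1 (199 ± 15.8 per kb) the ranges of neighbouring members did not overlap. Chordc1 was above Hspa1a in 23 of 24 libraries. The lower end was less clearly ordered: Hspa1a (143 ± 21.6 per kb), Hspa1b (143 ± 32.2 per kb) and Hspb1 (112 ± 16.3 per kb) had overlapping ranges. Bag3, a nucleotide exchange factor that links HSP70 to small heat shock proteins and autophagy, was lowest at 66.7 ± 16.6 per kb and below Hspb1 in 24 of 24 libraries. Together the 10 genes took 0.418% ± 0.0248 of all reads (SD, n = 24), with single libraries from 0.381% to 0.486%. The spread over the 24 libraries was smallest for Hspa8 (coefficient of variation 7.84%), Chordc1 (7.96%) and Hsp90aa1 (7.98%). It was widest for Bag3 (24.8%) and Hspa1b (22.6%).

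The recovered depth was 24133344 to 35940460 reads per library. Cortical excitatory neuron markers such as Slc17a7 (28907 to 53751) were present in every library. Markers of other tissue also varied: 6 libraries stood apart by the highest score of 8 olfactory bulb genes (mean log2(value + 1) of 10.4 to 10.97, against 4.08 to 9.44 in the other 18), and Eomes and Tbx21 among these genes reached 0 in some libraries. These were WT vehicle female 2, HT vehicle female 2, HT vehicle male 3, HT fluoxetine female 1, HT fluoxetine male 1 and HT lithium male 1. A further 4 held the highest Drd2 (a striatal marker) or Ttr (a choroid plexus marker): WT vehicle female 1, HT vehicle female 1, HT vehicle male 1 and HT fluoxetine female 2. By the batch label, all 6 lithium libraries and HT fluoxetine female 3 were P40_L2 and the other 17 libraries were P40_L1, so lithium and batch cannot be told apart. The mean of Dyrk1a itself was higher in each HT arm than in WT, with 2200 ± 90.8 in WT vehicle and 2355 ± 61.2 in HT vehicle (SD, n = 6). In HT fluoxetine it was 2476 ± 97.5 and in HT lithium 2447 ± 113. On vehicle the ranges overlapped, from 2088 to 2349 in WT and from 2254 to 2431 in HT. The HT lithium range, 2254 to 2584, also overlapped that of WT, while the HT fluoxetine range, 2353 to 2589, lay above it. Why the means were higher in HT was not tested. A stop allele need not lower the RNA level of its gene, so the level is no check of the labels.

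**Figure D1:**
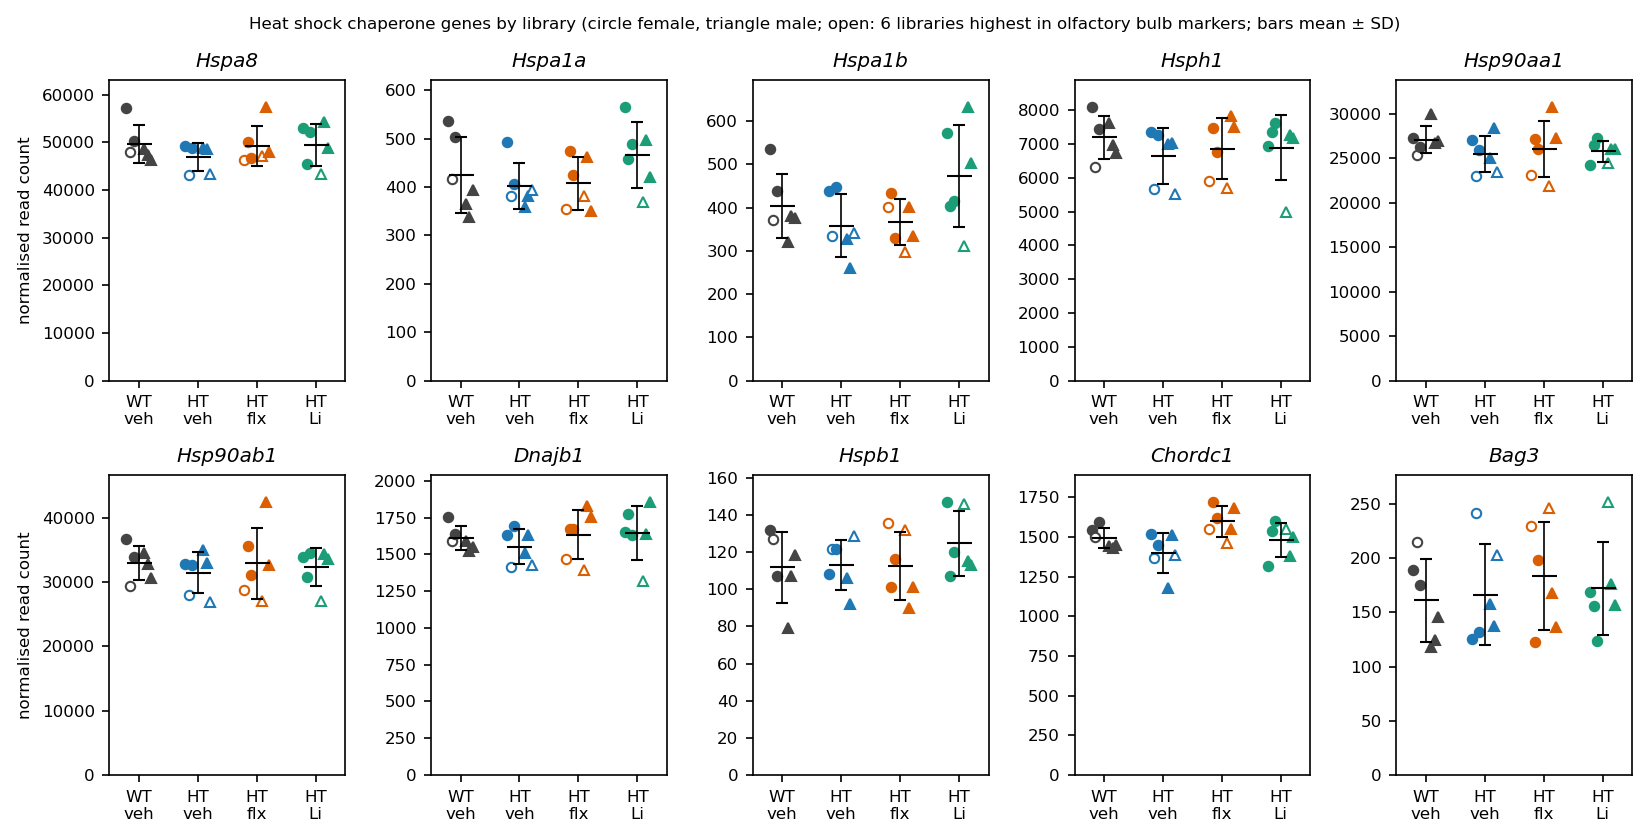
Normalised read count (y axis from 0) of each of the 10 genes in the 24 libraries by arm (x axis: WT on vehicle, then HT on vehicle, on fluoxetine and on lithium), with females as circles and males as triangles; open symbols are the 6 libraries highest in olfactory bulb markers and black bars are the mean ± SD of 6 libraries. The arms overlap for every gene, and the open symbols sit at the bottom for Hsph1 (4983 to 6324) and Hsp90ab1 (26931 to 29398) and at the top for Bag3 (203 to 252).

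The first comparison asked whether heterozygotes differ from wild type on vehicle. None of the 10 chaperone genes was called (limma, adjusted p under 0.05 over 16825 genes), where 0% of all genes tested were called. At an unadjusted p under 0.05, 0 of 10 members and 455 of all genes (2.7%) passed in limma, 457 in edgeR and 403 in DESeq2, and neither count tool called a member. Of the 10 genes, 8 had a lower fitted level in HT, beside 8630 of all 16825 genes tested. The median log2 difference of the members was -0.08, beside -0.0024 over all genes tested.

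The inducible HSP70 gene Hspa1b (chromosome 17, 34956436 to 34959238) gave the farthest member estimate. It stood at 404 ± 74.8 normalised reads in WT vehicle and 358 ± 72.2 in HT vehicle (SD, n = 6). WT libraries ran from 320 to 536 with a median of 378, and HT libraries from 260 to 448 with a median of 338. The arms overlapped broadly, and the log2 difference was -0.18 ± 0.15 (standard error; limma adjusted p = 1). For Hspa1a (chromosome 17, 34969190 to 34972156) the difference was -0.07 ± 0.10, from 426 ± 78.3 to 402 ± 47.1. The pair summed to 829.4 ± 148 in WT and 761 ± 110 in HT, a difference of -0.12 ± 0.11.

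The constitutive gene Hspa8 stood at 46289 to 57269 in WT vehicle (median 48236) and at 43119 to 49246 in HT vehicle (median 48630). All 6 HT libraries lay below the WT mean of 49595, which 1 library, WT vehicle female 1, pulled up. The difference was -0.08 ± 0.08, with a 95% interval from -0.24 to 0.08. Hsph1 (chromosome 5, 149614287 to 149636376) ran from 6324 to 8089 in WT and from 5523 to 7364 in HT, with a difference of -0.12 ± 0.11. Without the 6 libraries highest in bulb markers that difference was -0.05, and 2 of those 6 are HT vehicle and 1 is WT vehicle.

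Among the HSP90 genes, Hsp90aa1 (chromosome 12, 110690605 to 110702728) stood at 25377 to 29981 in WT vehicle and 23015 to 28357 in HT vehicle, a difference of -0.09 ± 0.08. Hsp90ab1 (chromosome 17, 45567775 to 45573271) differed by -0.07 ± 0.10 and by -0.02 without the 6 libraries. Chordc1, a zinc-binding partner of HSP90 (chromosome 9, 18292125 to 18317442), ran from 1429 to 1595 in WT (median 1474) and from 1177 to 1521 in HT (median 1416). The Chordc1 difference was -0.10 ± 0.06 with a 95% interval from -0.22 to 0.03. The J-domain gene Dnajb1 (chromosome 8, 83608193 to 83612653) differed by -0.05 ± 0.08. Hspb1 (chromosome 5, 135887919 to 135889563) and Bag3 (chromosome 7, 128523616 to 128546981) were the members with a higher estimate in HT, 0.03 ± 0.13 and 0.04 ± 0.19. Without the 6 bulb-high libraries all 10 estimates were below 0, with a median of -0.05. Leaving out the library WT vehicle female 1 moved the median to -0.04, and leaving out any other WT or HT vehicle library gave medians from -0.11 to -0.05.

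Fluoxetine was compared with vehicle within HT mice. No chaperone gene was called, where 0.0119% of all genes tested were called (2 genes; edgeR called 2 and DESeq2 called 16). The estimate was above 0 for 9 of 10 members and for 8333 of all genes (49.5%), with a median of 0.05, beside -0.0013 over all genes. At an unadjusted p under 0.05 stood 1 member, Chordc1, beside 961 of all genes in limma (5.71%), 957 in edgeR and 921 in DESeq2, and neither count tool called a member. The exception was Hspb1, at -0.01 ± 0.13. This comparison and the genotype comparison share the HT vehicle libraries.

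Chordc1 stood farthest from its error. Its HT vehicle libraries held 1521, 1365 and 1446 normalised reads in females and 1177, 1509 and 1386 in males. The HT fluoxetine libraries held 1552, 1721 and 1617 in females and 1461, 1549 and 1684 in males. All 6 fluoxetine libraries lay above the HT vehicle mean of 1400, but the lowest of them lay inside the vehicle range. The mean was 14.0% higher, a log2 difference of 0.19 ± 0.06 with a 95% interval from 0.07 to 0.32 (limma adjusted p = 0.61, rank 134 of 16825 genes by p). It was 0.175 ± 0.09 in females and 0.21 ± 0.09 in males, and 0.195 among the libraries of batch P40_L1. Leaving out single libraries gave 0.14 to 0.23, and DESeq2 gave 0.19 with an adjusted p of 0.43.

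Bag3 was next in size at 0.14 ± 0.19, from 166 ± 46.6 to 183 ± 49.8 (SD, n = 6), with libraries from 125 to 242 on vehicle and from 123 to 246 on fluoxetine. The remaining members lay between -0.01 and 0.07. Hspa8 stood at 0.07 ± 0.08 and Dnajb1 at 0.07 ± 0.08, Hsp90ab1 at 0.06 ± 0.10, Hsph1 at 0.05 ± 0.11 and Hsp90aa1 at 0.03 ± 0.08. The sum of Hspa1a and Hspa1b was 761 ± 110 on vehicle and 774 ± 93.9 on fluoxetine, a difference of 0.03 ± 0.11. Without HT fluoxetine male 2, which held the highest Hspa8, Hsp90aa1 and Hsp90ab1 of all 24 libraries, 6 of 10 members were above 0 and the median was 0.01. The same held without HT vehicle female 2, with a median of 0.01.

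Lithium was compared with vehicle within HT mice. No chaperone gene was called, where 0.0119% of all genes tested were called (2 genes; edgeR called 0 and DESeq2 called 3). At an unadjusted p under 0.05 stood 2 of the 10 members, Hspa1a and Hspa1b, beside 463 of all genes (2.75%). With the replicate block 1 member stood there, and with a batch term 0 members did, beside 190 of all genes (1.13%). All 10 estimates were above 0 (median 0.08, beside -0.00089 over all genes tested, of which 8331 or 49.5% were above 0), but under the fit with a batch term 7 of 10 were.

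The inducible pair carried the lithium estimates farthest from 0. Hspa1b held 439, 335 and 448 reads in HT vehicle females and 328, 260 and 340 in HT vehicle males. With lithium it held 573, 403 and 416 in females and 311, 632 and 503 in males. The lithium mean was 31.9% higher (473 ± 119 against 358 ± 72.2; SD, n = 6), with 5 of 6 libraries above the vehicle mean and overlapping ranges. The log2 difference was 0.38 ± 0.15, with a 95% interval from 0.06 to 0.70 (limma adjusted p = 1). The library below the vehicle mean was HT lithium male 1, the bulb-high library of that arm. Without the 6 bulb-high libraries the difference was 0.50 (limma adjusted p = 0.70), and leaving out single libraries gave 0.27 to 0.53. It was 0.18 ± 0.22 in females and 0.59 ± 0.22 in males, and the sex difference in the effect was not called (0% of genes called).

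Hspa1a held 358 to 492.7 reads on vehicle (median 387) and 370 to 565 on lithium (median 473), a difference of 0.21 ± 0.10 with a 95% interval that began at 0.0016. Summed, the pair held 761 ± 110 on vehicle and 939 ± 173 on lithium, 23.5% higher, a difference of 0.29 ± 0.11 (limma adjusted p = 1). With a batch term, which for lithium rests on 1 fluoxetine library, Hspa1b stood at 0.73 and Hspa1a at 0.16. Against HT fluoxetine, the lithium libraries differed by 0.34 ± 0.15 in Hspa1b and by 0.19 ± 0.10 in Hspa1a, with 0 of 10 members called beside 0.0238% of all genes (4 genes; DESeq2 called 30 and no member). Chordc1 differed by -0.11 ± 0.06 in that comparison, and all 6 lithium libraries lay below the fluoxetine mean of 1597.

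The other chaperones had small lithium estimates. Hspb1 stood at 0.14 ± 0.13, from 113 ± 13.4 to 125 ± 17.3, and Chordc1 at 0.08 ± 0.06, from 1400 ± 126 to 1480 ± 109 (SD, n = 6). Dnajb1 stood at 0.08 ± 0.08, Hspa8 at 0.07 ± 0.08 and Bag3 at 0.06 ± 0.19. Hsph1 (0.05 ± 0.11), Hsp90ab1 (0.04 ± 0.10) and Hsp90aa1 (0.02 ± 0.08) lay nearest 0. For the abundant members the intervals bound the size of a difference: for Hspa8 the 95% interval ran from -0.09 to 0.24, and for Hsp90aa1 from -0.14 to 0.18.

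**Figure D2:**
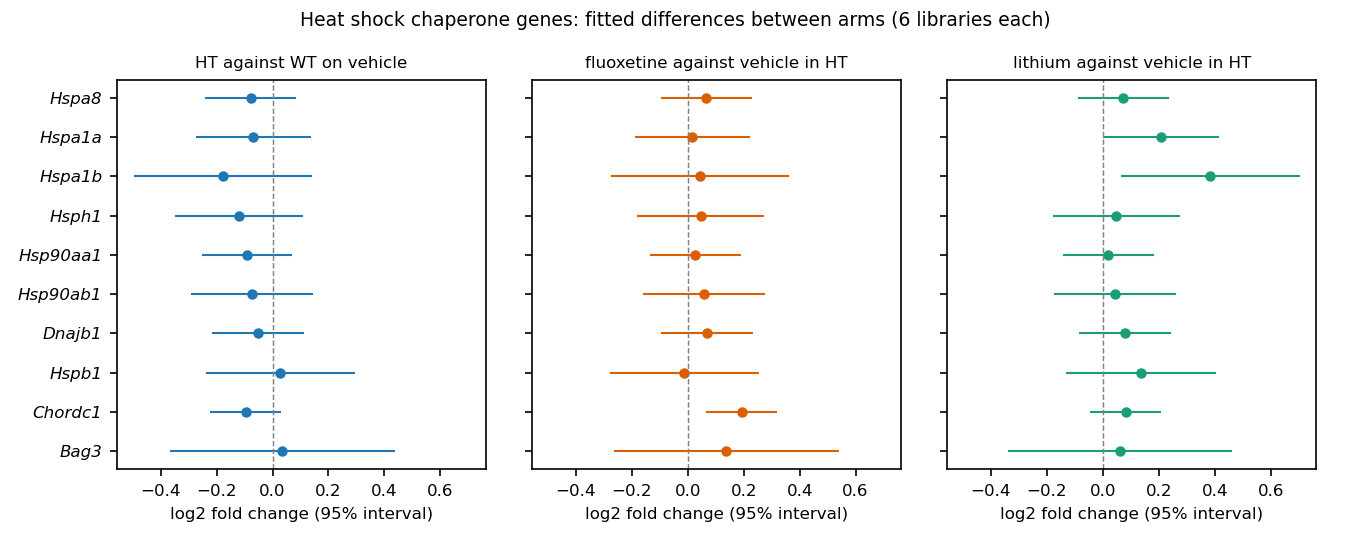
Fitted log2 fold change (x axis; point) with its 95% interval (line) for each gene (y axis) in 3 comparisons of 6 against 6 libraries. Intervals that miss 0 are those of Chordc1 on fluoxetine (0.07 to 0.32) and of Hspa1a and Hspa1b on lithium (lower bounds 0.0016 and 0.06), and none passed adjustment over all genes.

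Set against WT vehicle, the treated HT arms also gave no called member. For HT fluoxetine against WT vehicle 0% of genes were called (0 by edgeR and 18 by DESeq2, with 737 at an unadjusted p under 0.05 in limma), and 4 of 10 members were higher with a median of -0.01. For HT lithium against WT vehicle 0% of genes were called (0 by edgeR and 5 by DESeq2, with 431 at an unadjusted p under 0.05 in limma), and 5 of 10 were higher with a median of 0.01. Hspa1b stood at 0.21 ± 0.15 and Bag3 at 0.10 ± 0.19 in the lithium arm against WT. In a test of any difference among the 4 arms 0% of genes and 0 members were called. In limma Chordc1 was the single member at an unadjusted p under 0.05 (limma adjusted p = 0.9999), beside 685 of all genes (4.07%). In edgeR 2 members stood there, beside 687 of all genes (4.08%).

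Over the 4 arms, males were compared with females. No chaperone gene was called, where 0.0832% of genes were called (14 genes). At an unadjusted p under 0.05 in limma stood 1 member, Hspa1a, beside 435 of all genes (2.59%). With a batch term 2 members stood there, beside 397 of all genes (2.36%). The inducible pair had the widest gap: Hspa1a stood at 485 ± 62.1 in WT females and 366 ± 28.3 in WT males, at 427 ± 58.2 and 377 ± 17.6 in HT vehicle, at 417 ± 60.4 and 398 ± 58.1 in HT fluoxetine and at 504 ± 55.3 and 429 ± 64.2 in HT lithium (SD, n = 3). For Hspa1a females were above males in the mean of every arm. For Hspa1b this held in 3 of the 4 arms, and in HT lithium the means were 464 ± 94.4 in females and 482 ± 162 in males (SD, n = 3). The male against female difference was -0.22 ± 0.07 for Hspa1a (95% interval from -0.36 to -0.07) and -0.22 ± 0.11 for Hspa1b (limma adjusted p = 1 for both). For their sum it was -0.21 ± 0.08. The other 8 members lay between -0.13 (Hspb1) and 0.03 (Hsp90aa1). No member was called for a sex difference in the genotype, fluoxetine or lithium effect, with 0% of genes called in each. The Bag3 genotype estimate was -0.27 ± 0.27 in females and 0.35 ± 0.27 in males, and this sex difference was 0.62 ± 0.38. In WT vehicle, Bag3 held 176 to 215 reads in females and 118 to 145 in males. The olfactory bulb scores of these libraries also differed, 8.40 to 10.74 in females and 5.23 to 8.59 in males. How many of all genes separate the same libraries was not counted.

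Several of the chaperone genes went with the bulb score of a library, in all 4 arms. Hsph1 held 4983 to 6324 reads in the 6 bulb-high libraries and 6729 to 8089 in the other 18, so that all 6 lay below all 18. Hsp90ab1 behaved alike, with 26931 to 29398 against 30667 to 42511. Of the 6 libraries, 5 lay below all 18 for Dnajb1, 4 for Hsp90aa1 and 3 for Hspa8. Bag3 went the other way, with 203 to 252 reads against 118 to 198, so that all 6 lay above all 18. Such separations were common over all 16825 genes tested: in 9.91% all 6 libraries lay below all 18, and in 8.46% all 6 lay above. Hspb1 held 122 to 146 in the 6 and 79.0 to 147 in the 18. Cortical excitatory neuron markers were lower in the same 6 libraries (score 10.8 to 11.2, against 11.5 to 11.96). The part of tissue composition in these levels was not tested, and in bulk tissue fewer cells of a type and less RNA per cell cannot be told apart.

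Over 24 libraries, log2 Bag3 correlated with the bulb score at Pearson r = 0.83 (Spearman 0.80; permutation test, adjusted p = 1e-04 and 0.00015). For this Pearson r the unadjusted p was the smallest these permutations can give. Without the 2 libraries farthest from the median score r was 0.87, and within the 18 other libraries 0.59. Hspb1 gave r = 0.71 (Spearman 0.77; permutation adjusted p = 3e-04 and 0.00015), 0.69 without the 2 farthest and 0.55 within the 18. For Hsph1 r was -0.72 (Spearman -0.63; permutation adjusted p = 3e-04 and 0.0031), -0.75 without the 2 farthest and -0.16 within the 18. Its relation thus rested on the 6 bulb-high libraries. The same was seen for Hsp90ab1, at -0.56 (Spearman -0.48; permutation adjusted p = 0.007 and 0.030), -0.65 without the 2 farthest and 0.11 within the 18. Hsp90aa1 (-0.68, then -0.28 within the 18) and Dnajb1 (-0.68, then -0.29) passed as well, with Spearman values of -0.63 and -0.62, permutation adjusted p from 0.00062 to 0.0033, and -0.68 and -0.67 without the 2 farthest. Within batch P40_L1 (17 libraries) r was 0.91 for Bag3, 0.77 for Hspb1, -0.75 for Hsph1, -0.74 for Hsp90aa1, -0.63 for Hsp90ab1 and -0.63 for Dnajb1. In P40_L2 (7 libraries) the values were 0.64, 0.73, -0.65, -0.55, -0.36 and -0.81. In all, 6 of 10 members passed, the weakest at an absolute r of 0.56, and 43.1% of all genes tested reached that value. With so high a share over all genes, the count says nothing particular about the chaperones. Hspa1a (-0.05), Hspa1b (-0.09), Chordc1 (-0.16) and Hspa8 (-0.24) did not pass, with permutation adjusted p of 0.36 or more, and Spearman values from -0.29 to -0.02 (permutation adjusted p of 0.23 or more).

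**Figure D3:**
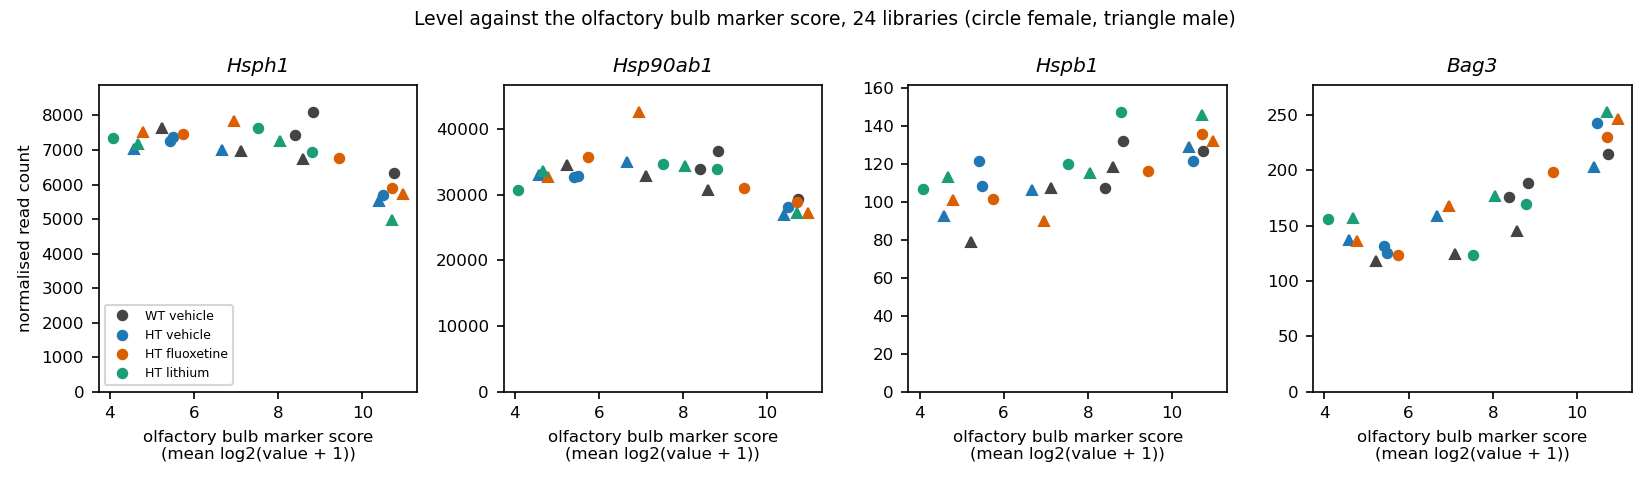
Normalised read count (y axis from 0) of Hsph1, Hsp90ab1, Hspb1 and Bag3 against the olfactory bulb marker score (x axis, mean log2(value + 1) of 8 genes) in 24 libraries, coloured by arm, circles female and triangles male. Beyond a score of 10.4 every Hsph1 value is at or below 6324 and every Bag3 value at or above 203, in libraries of all 4 arms.

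Among themselves, the members did not move as a single block. Of the 45 pairs, 30 had a positive Pearson r over 24 libraries, with a median of 0.25 and a range from -0.77 to 0.87, and 26 passed at a permutation adjusted p under 0.05 over 45 pairs, 19 positive and 7 negative. The weakest of the 26 stood at an absolute r of 0.45, which 57.8% of member pairs and 30.7% of all pairs of the 16825 genes tested reached (15.4% positive and 15.3% negative). The highest was Hsph1 with Hsp90ab1 at 0.87, followed by Hspa8 with Hsp90ab1 at 0.86 and Hsph1 with Dnajb1 at 0.86 (each permutation adjusted p = 9e-05, where the unadjusted p was the smallest these permutations can give; Spearman 0.82, 0.87 and 0.72). Hspa1a with Hspa1b gave 0.74 (Spearman 0.75; permutation adjusted p = 0.00018), where shared reads may add to the likeness. Of the 7 negative pairs, 6 joined Bag3 or Hspb1 with Hsp90aa1, Hsp90ab1 or Hsph1 and 1 joined Bag3 with Dnajb1, at -0.54 over 24 libraries (Spearman -0.41; permutation adjusted p = 0.015 and 0.081) and at 0.31 within the 18 libraries that are not bulb-high. Examples were Hsp90aa1 with Hspb1 at -0.77 (Spearman -0.69) and Hsph1 with Bag3 at -0.75 (Spearman -0.65; permutation adjusted p = 0.00017 and 0.00018). Without the 2 libraries farthest from the median of the first gene, the 4 positive pairs named stood at 0.85, 0.81, 0.78 and 0.64 and the 2 negative examples at -0.75 and -0.70, in the order named, and Bag3 with Dnajb1 stood at -0.34. Within the 18 other libraries the values differed between pairs. Hsph1 with Hsp90ab1 stood at 0.66, Hspa8 with Hsp90ab1 at 0.83, Hspa1a with Hspa1b at 0.74 and Hsp90aa1 with Hspb1 at -0.76. Hsph1 with Dnajb1 stood at 0.48 and Hsph1 with Bag3 at -0.07 there, so that the last rested on the bulb-high libraries. Chordc1 correlated with no other member past the threshold, its highest r being 0.35 with Hsp90aa1.

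**Figure D4:**
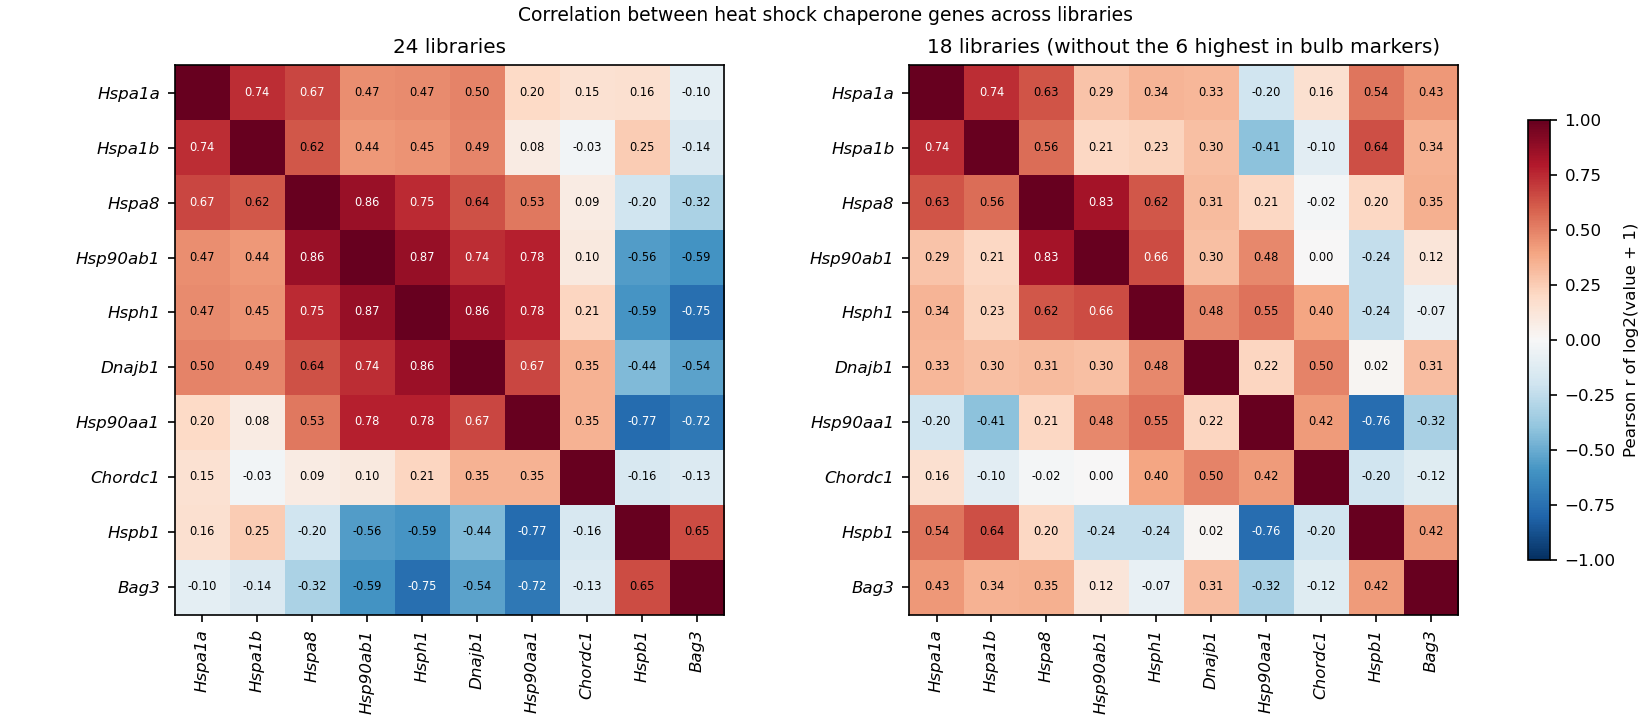
Pearson r of log2(value + 1) between each pair of the 10 genes (both axes) over all 24 libraries (left) and over the 18 libraries left after the 6 highest in olfactory bulb markers (right), on a colour scale from -1 to 1. Hspa8 with Hsp90ab1 is at 0.86 and 0.83 in the panels, while Hsph1 with Bag3 is at -0.75 and -0.07.

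Genes whose deviation from their group mean was most like that of the members over 24 libraries were found among all genes tested, and the likeness is given with no test because they were chosen for it. For the mean of the 10 members they were Saraf (r = 0.94), Atp6v0d1 (0.93), Ptges2 (0.93), Tmem248 (0.93) and Mgat3 (0.92). For single members, the gene most like Hsph1 was the lactate dehydrogenase gene Ldha (r = 0.99) and that most like Hsp90ab1 was the aldolase gene Aldoa (0.99). The match was Atp6ap2 for Hsp90aa1 (0.97), Nudt18 for Dnajb1 (0.96), Furin for Bag3 (0.96), Psmb5 for Hspa8 (0.94), Tmem33 for Chordc1 (0.94), Rpl11 for Hspb1 (0.92), Ssna1 for Hspa1a (0.90) and Mrpl28 for Hspa1b (0.85). All libraries share the bulb axis described above. No member had another member as its closest gene.

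The rest of the chaperone network was covered by 63 genes in 7 lists: heat shock factors, other HSP70 and HSP110 genes, other J-domain genes, co-chaperones of HSP90 and HSP70, other small heat shock genes, chaperonins, and further HSF1 target genes. None was called in any of the 11 comparisons. In HT against WT on vehicle 43 of 63 had a lower estimate (median -0.02), among them 11 of 12 J-domain genes, 9 of 10 chaperonin genes and 7 of 9 HSP70 and HSP110 genes, while 5 of 6 small heat shock genes had a higher one. Over all genes tested 8630 of 16825 were lower. With fluoxetine 38 of the 63 were higher (median 0.01) and with lithium 42 (median 0.02), beside 8333 and 8331 of all 16825 genes.

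Dnajb5, a J-domain gene, had the smallest p of the 63 in each of these comparisons. Its log2 difference was -0.15 ± 0.05 in HT against WT, 0.21 ± 0.05 with fluoxetine and 0.145 ± 0.05 with lithium (limma adjusted p = 1, 0.50 and 1), and these comparisons share the HT vehicle libraries. Hspa14, a ribosome-associated HSP70, stood at -0.08 ± 0.04 in HT against WT and 0.12 ± 0.04 with fluoxetine (adjusted p = 1 and 0.62). The HSP70-HSP90 adaptor gene Stip1 stood at -0.07 ± 0.04 in HT against WT. Hspb2, a small heat shock gene, stood at -0.59 ± 0.23 with fluoxetine (limma adjusted p = 0.78). With lithium, the HSP90 co-chaperone gene Ptges3 stood at 0.09 ± 0.04 and the chaperonin subunit gene Cct4 at 0.08 ± 0.04 (limma adjusted p = 1 for both).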

How the data were processed

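Bulk RNA-seq of prefrontal cortex from 24 mouse libraries (8 groups of 3, by arm and sex) was analysed. The submitters' processing notes name the build GRCm38 and the tools DESeq2 1.19.11, Salmon 0.11.2 and R 3.6.0, without their roles. The kit named in the labels keeps the strand, and the counting setting for strand is not given in the sources used here. The authors deposited a table of normalized read signal for 18240 genes. Its values are whole multiples of what 1 read is worth in a library (100% of values within 0.01 of a read), which gave the depth of 24133344 to 35940460 reads. GENCODE M21 named 18227 identifiers. Any pair of libraries differed by a chi-square of at least 4.57 per gene, so none counted as a repeat of another.

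Values were tested as log2(value + 1) with limma (version 3.58.1, trend on mean level; R 4.3.3), over 16825 genes with a mean of at least 10, with 8 group means and Benjamini-Hochberg adjustment over all genes (called under 0.05). For low genes a pseudocount of 1 makes the fold change too small. Alternatives were other filters and pseudocounts, edgeR 4.0.16 and DESeq2 1.42.0 on the recovered reads, a batch term, a replicate block, sets of libraries left out and each library left out. Correlations used log2 values and permutation tests of 1e+05 draws. The limma step was tested on simulated counts, for HT against WT on vehicle, and the other steps were not. Named were all 10 members, the 3 pathway genes of smallest p in each of the 3 main comparisons, and the closest genes by correlation of residuals (5 for the mean of the members, 1 for each member). The members, lists and libraries set apart were chosen with earlier results of these data known. Motifs were searched in the RefSeq promoter table (GRCm38.p6); 3 members had no entry there.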

Additional observations from a re-analysis of the deposited data

Results flagged for a closer look

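In 4 of the 40 sets of 6 libraries checked (10 genes in 4 arms), 1 library stood far from the other 5 by Dixon's criterion (gap over range above 0.625). Chance alone flags about 1 in 20 such sets. Hspa1a held 492.7 reads in HT vehicle female 1, against 358 to 407 in the other HT vehicle libraries. Hspa8 held 57269 reads in WT vehicle female 1, against 46289 to 50281 in the other WT libraries. It held 57352 in HT fluoxetine male 2, against 46327 to 50114 in the other fluoxetine libraries. Hsph1 held 4983 in HT lithium male 1, against 6934 to 7634 in the other lithium libraries, and that library is the lithium library among the 6 highest in olfactory bulb markers.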

How the results depend on the processing

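No member was called in any of the 11 comparisons under any alternative run (0 in each, with the replicate block too). Of 710 alternative values of the 10 members in the 3 main comparisons, 669 kept their direction. The 8 reversed outside the libraries left out singly were as follows, and the cause was not tested. In HT against WT, without the 6 bulb-high libraries, Hspb1 stood at -0.033 and Bag3 at -0.15. With fluoxetine, without the 4 libraries highest in Drd2 or Ttr, Hspb1 stood at 0.0049. With lithium, a batch term gave -0.038 for Hsp90aa1, -0.0097 for Dnajb1 and -0.18 for Bag3; Hsp90aa1 stood at -0.029 without the 6 libraries and Bag3 at -0.036 without the 4. Leaving out each library in turn gave, in HT against WT, -0.057 to 0.088 for Hspb1 and -0.116 to 0.120 for Bag3. With fluoxetine it gave -0.041 to 0.073 for Hspa1a, -0.023 to 0.101 for Hspa1b, -0.015 to 0.117 for Hsph1, -0.028 to 0.094 for Hsp90aa1, -0.027 to 0.135 for Hsp90ab1 and -0.089 to 0.050 for Hspb1. With lithium it gave -0.013 to 0.137 for Hsph1, -0.014 to 0.057 for Hsp90aa1, -0.012 to 0.098 for Hsp90ab1 and -0.039 to 0.212 for Bag3. Same-numbered libraries were in the median no more alike than others. The median correlation of deviations was -0.02 over 84 same-numbered pairs (31 over 0.1) and 0.02 over 168 others. Single pairs ran from -0.695 to 0.724 and from -0.681 to 0.73, so these medians cannot decide whether replicate numbers pair libraries. With the replicate block 0 members were called, and Chordc1 with fluoxetine stayed at 0.19. No value for lithium exists within batch P40_L1, which holds no lithium library. These comparisons are limited by the spread between libraries: the standard error of a member ran from 0.06 (Chordc1) to 0.19 (Bag3) on the log2 scale for arms of 6.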
